A study of Drosophila melanogaster with 15 samples.

Results

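The comparison set sorted testis cells that overexpressed chinmo (Chinmo) against sorted testis cells that expressed activated Ci (Ci), both from adult Drosophila melanogaster males. It compared 6 of the 15 libraries of the series, the 3 labelled Chinmo and the 3 labelled Ci, chosen by their labels alone, and set 3 control libraries (WT) beside them. The fit behind the calls took in all 15 libraries, among them 3 labelled Upd and 3 labelled Chinmo_RNAi. Males of the Chinmo, Ci and WT groups were all w/Y and carried the chromosome tj-Gal4,UAS-GFPnls. Chinmo males had it over UAS-5'UTR-chinmo-3'UTR, which is chinmo between its own untranslated regions, and were also heterozygous (/+) for tub-gal80TS, a temperature-sensitive repressor of Gal4. Ci males had it over a + chromosome and were heterozygous for the pair UAS-Ci5Ncm5, UAS-Ci5m30, with no Gal80. WT males had it over UAS-GFPnls, so the GFP transgene was carried on both homologues there and on 1 in Chinmo and Ci. All were 10 days past eclosion. The driver tj-Gal4 is active in the somatic cyst lineage, and GFP-positive cells were sorted from pools of 50 to 100 flies (100 to 200 testes). The Chinmo and Ci males therefore differed in Gal80 as well as in the expressed gene, and what each contributed cannot be told apart.

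The cyst lineage is the somatic side of the testis stem cell system. Cyst stem cells sit at the hub, the niche at the testis tip, divide to renew themselves, and give rise to cyst cells that wrap the germ line while it matures. The hub sends Unpaired, the ligand of the JAK/STAT pathway, and Hedgehog to these stem cells. Chinmo is a BTB zinc finger protein that acts in the JAK/STAT branch, keeps cyst stem cells renewing and keeps the adult testis soma male. Cubitus interruptus (Ci) is the zinc finger transcription factor at the end of the Hedgehog pathway, and patched (ptc), the Hedgehog receptor, is its classic target gene. Both factors are known for their part in keeping cyst stem cells, and the series examined each of them beside controls.

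The libraries differed in depth and in how many genes they detected. Counts assigned to genes were 1569692, 1740043 and 1143049 in Chinmo 1 to 3, and 2087894, 2943120 and 2123547 in Ci 1 to 3. Chinmo 3 detected 4983 genes. The other Chinmo libraries detected 9355 and 10080, and the Ci libraries 11474, 13229 and 11762. Thinned to the depth of Chinmo 3, the libraries held 9145, 9792 and 4983 genes in Chinmo and 10986, 12324 and 11257 genes in Ci, so Chinmo 3 stood apart at equal depth too. Ribosomal RNA genes took 24.2%, 18.1% and 32.3% of the counts in Chinmo, and 17.3%, 12.8% and 16.8% in Ci. Replicate libraries differed far beyond sampling noise, and no label says whether they came from separate crosses, so p-values measure the spread between these libraries. Levels below are CPM (counts scaled to a common library size) after TMM scaling, and differences are log2 changes of Chinmo over Ci with their standard error (SE), with 3 libraries in each group.

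**Figure D1:**
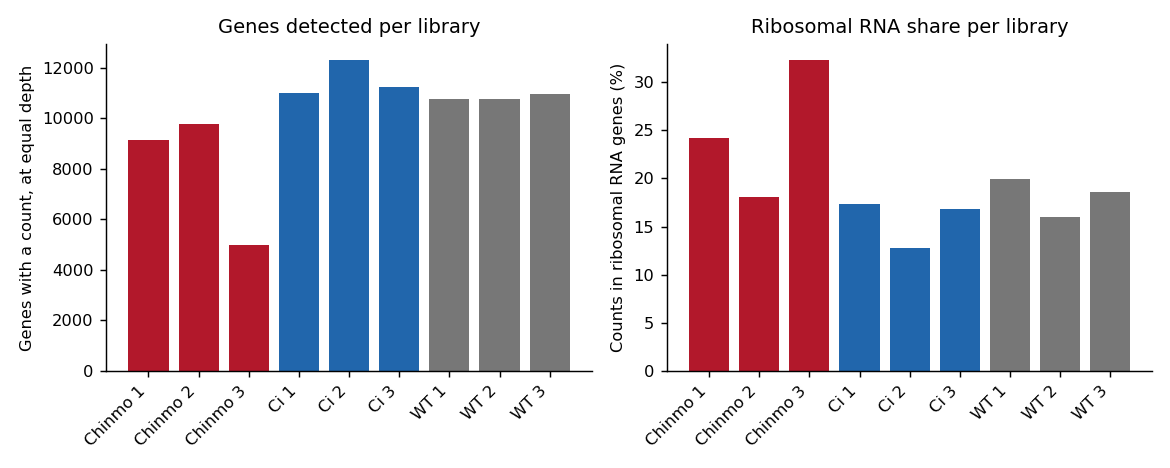
Genes detected at an equal depth (left, number of genes) and the percentage of counts in ribosomal RNA genes (right) for the 3 Chinmo, 3 Ci and 3 WT libraries, 1 bar per library. Chinmo 3 detected 4983 genes and carried 32.3% ribosomal RNA counts, the lowest bar on the left and the highest on the right among these 9 libraries.

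Among the gene lists described below, members of the ribosomal proteins (34 of 92 tested), oxidative phosphorylation (14 of 48) and the glutathione S-transferases (10 of 28) were higher in Chinmo than in Ci. Members of the early germline list (6 of 18) and the cell cycle list (5 of 46) were lower, as were dsx, Wnt4, Wnt6 and esg. In the edgeR quasi-likelihood fit, 499 of 10056 genes tested were higher in Chinmo (4.96%) and 313 were lower (3.11%) at an adjusted p of 0.05. Without Chinmo 3 the split turned round, with 234 genes higher (2.2%) and 480 lower (4.52%) of 10628 tested. The same 160 higher and 255 lower genes passed in both fits, 397 genes passed only with all libraries, and 296 genes tested in both fits passed only without Chinmo 3. Of the 499 higher genes, 26 had a negative log2 change once Chinmo 3 was left out. Chinmo 3 was the highest of the 6 libraries in 396 of the 499 higher genes, against 1613 of the 10056 genes tested. It held no count for 234 of the 313 lower genes (74.8%, against 51.8% of all genes tested). Genes chosen as higher in Chinmo tend by that choice to have a Chinmo library as the highest. Those chosen as lower tend to lack counts there. The higher genes were abundant, with a median of 409 CPM in Chinmo and 104 CPM in Ci. The lower genes were scarce in Chinmo, with a median of 0.878 CPM there and 25.9 CPM in Ci. Over all genes tested the medians were 17.0 CPM in Chinmo and 23.1 CPM in Ci. The levels in Chinmo follow in part from the direction of the call.

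**Figure D2:**
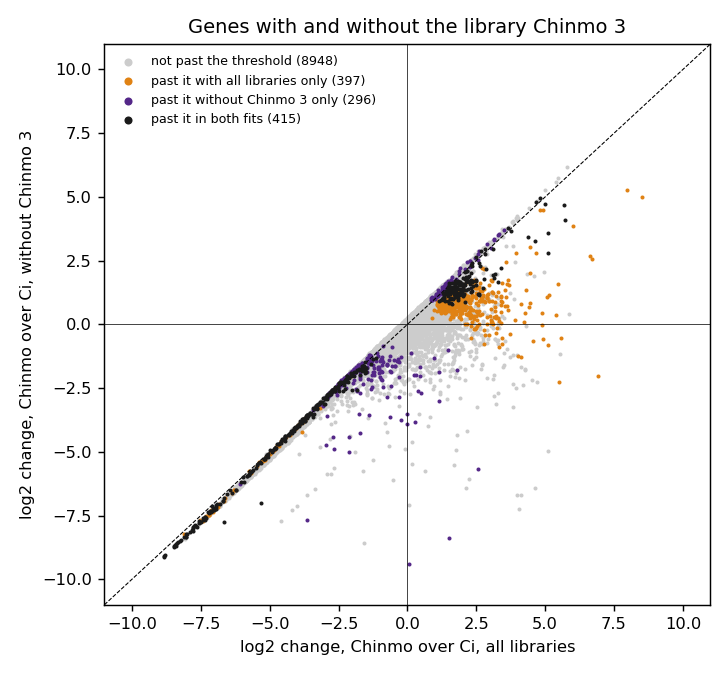
Log2 change of Chinmo over Ci for each of the 10056 genes, with all libraries (x axis) and without Chinmo 3 (y axis), coloured by the fit in which the gene passed an adjusted p of 0.05. The 415 genes that passed in both fits (black) lie on the same side of 0 in both, while the 397 that passed with all libraries only (orange) include a band of positive changes that fall towards 0 without Chinmo 3.

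The calls depended on Ci 2, the deepest library, more than on Chinmo 3. Without Ci 2, 26 genes were higher (0.249%) and 15 lower (0.144%). That kept 5.21% of the higher and 4.79% of the lower calls, against 32.1% and 81.5% without Chinmo 3. Ci 2 was the lowest of the 6 libraries in 372 of the 499 higher genes, against 1223 of the 10056 genes tested. Genes chosen as higher in Chinmo tend by that choice to have a Ci library as the lowest. Without Ci 3, 90 genes were higher (0.858%) and 43 lower (0.41%). A fit of the 6 libraries alone called 3 genes higher and 0 lower (edgeR), with 760 higher and 714 lower at an unadjusted p under 0.05. The median gene was shifted by -0.39 on the log2 scale, and by -0.75 under size factors (RLE), where 402 genes were higher and 693 lower. The upper quartile gave 808 higher and 387 lower. No gene past the threshold changed sign under either scaling, and 26 higher and 13 lower genes passed in the fits that left out each of the 6 libraries in turn.

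The transgenes and their readouts came first. The chinmo gene (2L:1651258-1704682, plus strand) had 100.1, 392 and 761 CPM in Chinmo, against 153, 208 and 106 CPM in Ci and 70.8, 75.2 and 69.8 CPM in WT. Chinmo 1 lay below every Ci library, so the groups overlapped. The log2 change over Ci was 1.42 ± 0.51 (edgeR adjusted p = 0.0816) and 0.29 without Chinmo 3. It passed without Chinmo 1 (1.88, edgeR adjusted p = 0.0117) and under upper quartile scaling (1.84, 0.0448). Over WT, with Chinmo 3 included, chinmo was higher in Chinmo by 2.53 (adjusted p = 0.0270, edgeR), and the 1.11 of Ci over WT did not pass. The ci gene (4:47710-57041, minus strand) had 117, 60.6 and 34.9 CPM in Chinmo, 510.4, 284 and 192 CPM in Ci, and 33.4, 31.0 and 18.5 CPM in WT. Every Ci library stood above every Chinmo library, and the log2 change of -2.21 ± 0.51 passed (edgeR adjusted p = 0.0143, and 0.00867 without Chinmo 3). The call was lost without Ci 1 (adjusted p = 0.0622, edgeR) or Ci 2 (0.0629). Reads of a transgene and of the gene on its own chromosome cannot be told apart in these counts.

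Ptc, the Hedgehog receptor and Ci target, had 4.17, 17.1 and 0 CPM in Chinmo, against 47.2, 42.8 and 41.0 CPM in Ci and 6.16, 5.57 and 10.9 CPM in WT. The 3 Ci libraries were close together and stood above all others, yet the log2 change of -2.51 ± 0.93 did not pass (edgeR adjusted p = 0.0879). Traffic jam (tj), the cyst lineage factor whose expression the driver follows, had 1.67, 13.8 and 0 CPM in Chinmo and 61.9, 43.7 and 35.0 CPM in Ci, a log2 change of -3.005 ± 1.02 that also missed the threshold (edgeR adjusted p = 0.0657). Zfh1, a repressor that marks cyst stem cells, had 44.2, 2.63 and 0 CPM in Chinmo and 74.8, 120.2 and 37.5 CPM in Ci (log2 change -2.26, edgeR adjusted p = 0.0828), with Chinmo 1 inside the Ci range. All 3 genes passed under other settings: ptc, tj and zfh1 had adjusted p of 0.0440, 0.0397 and 0.0469 in edgeR with RLE scaling, of 0.00206, 0.00599 and 0.0129 in DESeq2, and of 0.0109, 0.0109 and 0.0104 in limma-voom. In edgeR without a filter tj and zfh1 passed (0.00604 and 0.00936), without Chinmo 2 ptc and tj did (0.0218 and 0.0160), and without Chinmo 1 zfh1 did (0.00113). Without Chinmo 3 none of the 3 passed (log2 changes -2.37, -2.88 and -2.15, edgeR adjusted p = 0.0622, 0.0773 and 0.0780). They also missed the threshold under upper quartile scaling, in the 6 libraries alone, and without any 1 of the Ci libraries (edgeR). For eyes absent (eya), a marker of differentiated cyst cells, levels were 183, 285 and 133 CPM in Chinmo and 353, 136 and 115.2 CPM in Ci, which overlapped, with a log2 change near 0. Hedgehog itself (hh) had 41.7, 32.3 and 3.32 CPM in Chinmo and 47.2, 9.35 and 36.7 CPM in Ci, and did not pass (log2 change -0.23, edgeR adjusted p = 0.867). Of 20 tested members of the Hedgehog list, ci alone passed, and the median log2 change was -0.29 beside -0.39 over all genes tested.

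The JAK/STAT list gave 2 higher and 0 lower of 15 tested, with a median of -0.10. Its higher members were vir-1, a gene induced by JAK/STAT signalling during virus infection, and Tep2, a thioester-containing immune protein. Vir-1 had 1249.8, 1077 and 2579 CPM in Chinmo, against 701, 253 and 416 CPM in Ci (log2 change 1.84 ± 0.38, edgeR adjusted p = 0.00847). It stayed past the threshold without Chinmo 3 at 1.03 (edgeR adjusted p = 0.0379), and was lost without Ci 2 (0.0751) or Ci 3 (0.0517). Tep2 had 198, 267 and 562 CPM in Chinmo and 127, 57.0 and 78.9 CPM in Ci (log2 change 1.96, edgeR adjusted p = 0.0161). Tep2 no longer passed without Chinmo 3 (1.09, adjusted p = 0.0536), Ci 2 (0.108) or Ci 3 (0.0849) in edgeR. Socs36E, the feedback inhibitor of the pathway, had 32.5, 25.03 and 9.97 CPM in Chinmo and 50.3, 39.5 and 37.5 CPM in Ci. Its libraries did not overlap, and its log2 change of -0.89 did not pass (edgeR adjusted p = 0.358).

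3 genes were higher in Chinmo with all libraries, with any 1 of the 6 left out, and in the fit of the 6 libraries alone. SP1029 (3R:29244961-29250451, minus strand), which encodes an aminopeptidase, had 376, 229 and 263 CPM in Chinmo, against 7.57, 6.55 and 12.8 CPM in Ci and 22.1, 31.0 and 16.1 CPM in WT. All Chinmo libraries stood far above all the others, Chinmo 3 lay between the other Chinmo libraries, and the log2 change was 5.01 ± 0.71 (edgeR adjusted p = 0.00147) with all libraries and 4.71 without Chinmo 3. CG7443 (3R:8324316-8325036, plus strand) had 229, 146 and 1010.3 CPM in Chinmo, 8.46, 5.61 and 11.9 CPM in Ci, and 12.8, 33.0 and 18.5 CPM in WT. Here Chinmo 3 was the highest, and the log2 change was 5.73 ± 0.76 (edgeR adjusted p = 0.00147), or 4.09 without it. CG3397 (3R:11983098-11984541, minus strand) had 202, 162 and 505 CPM in Chinmo, 8.91, 4.91 and 2.99 CPM in Ci, and 4.62, 2.39 and 3.32 CPM in WT. Its log2 change was 5.68 ± 0.84 (edgeR adjusted p = 0.00273), and 4.68 without Chinmo 3. In the 6 libraries alone each of the 3 genes had an edgeR adjusted p of 0.0197.

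Another 23 genes stayed higher in each fit that left out 1 library. Those named in this paragraph and the next, where the text says so, were picked after their values were seen. Among those the naming rule gave, yip2, a mitochondrial thiolase of fatty acid breakdown, had 419, 506 and 1617 CPM in Chinmo and 124, 43.3 and 71.2 CPM in Ci. Its log2 change was 3.41 ± 0.54 (edgeR adjusted p = 0.00388), and 2.23 without Chinmo 3. Arpc1, a subunit of the actin-branching Arp2/3 complex, had 203, 395 and 1002 CPM in Chinmo and 68.1, 57.8 and 51.6 CPM in Ci. It changed by 3.17 ± 0.52 (edgeR adjusted p = 0.00455), and by 1.99 without Chinmo 3. Picked after their values were seen, Act5C, the cytoplasmic actin, was higher by 1.95 and by 1.17 without Chinmo 3, and Pdi, a protein disulphide isomerase of the endoplasmic reticulum, by 1.97 and 1.58 (edgeR adjusted p = 0.00455 for both).

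Npc2a, a sterol-binding protein picked after its values were seen, as were His4r and Tctp, had 607, 488 and 482 CPM in Chinmo, against 145, 72.9 and 144 CPM in Ci, and Chinmo 3 was the lowest Chinmo library (log2 change 2.13 ± 0.37, edgeR adjusted p = 0.00455, and 1.85 without Chinmo 3). Histone His4r had 1893, 1991 and 1769.7 CPM in Chinmo and 706, 342 and 616 CPM in Ci, a log2 change of 1.76 with all libraries and 1.47 without Chinmo 3 (edgeR adjusted p = 0.00455 and 0.00715). Tctp, a regulator of growth, had 3644, 3934 and 3081 CPM in Chinmo and 1555, 705 and 1055 CPM in Ci, with log2 changes of 1.68 and 1.45 in the same pair of fits. In these 3 genes the groups did not overlap, and the Chinmo libraries lay within a narrow range.

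**Figure D3:**
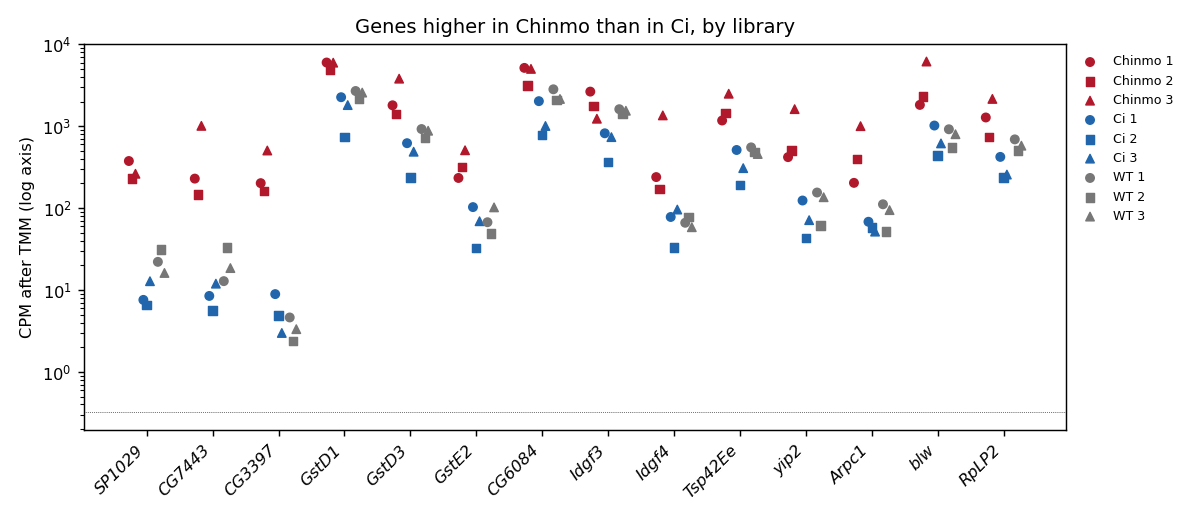
CPM after TMM scaling (log axis) of 14 genes named in the text as higher in Chinmo, 1 symbol per library, with Chinmo in red, Ci in blue and WT in grey; triangles mark replicate 3. Every Chinmo symbol lies above every Ci symbol of its gene, the distance is widest for SP1029, CG7443 and CG3397, and Ci 2 (blue square) is often the lowest symbol.

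Glutathione S-transferases, enzymes that conjugate glutathione to reactive and foreign compounds, were part of the higher genes. Of 28 tested, 10 were higher and 0 lower, with a median log2 change of 1.35, and the count was again 10 higher and 0 lower of 29 without Chinmo 3 (median 1.31), against 2 higher without Ci 2. GstD1 (3R:12367817-12369268, minus strand) had 5997, 4945 and 5970.4 CPM in Chinmo, against 2261, 739 and 1811 CPM in Ci (log2 change 1.81 ± 0.34, edgeR adjusted p = 0.00501, and 1.45 without Chinmo 3). GstD3 (3R:12373068-12373813, plus strand) had 1802, 1418 and 3809 CPM in Chinmo and 621, 237 and 488 CPM in Ci, and changed by 2.38 ± 0.42 (edgeR adjusted p = 0.00455), or 1.52 without Chinmo 3. Both passed in each fit that left out 1 library, and in both the groups did not overlap.

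GstE2 had 233, 318 and 508 CPM in Chinmo and 103, 32.7 and 69.1 CPM in Ci (log2 change 2.37), and GstE3 changed by 1.96, both past the threshold with and without Chinmo 3 (edgeR adjusted p from 0.0132 to 0.0415). GstD5, at 25.8, 21.7 and 1.66 CPM in Chinmo, was near absent in Ci at 0, 0.701 and 0.853 CPM, and GstD2 had 92.5, 27.7 and 31.6 CPM in Chinmo and 4.90, 2.10 and 4.27 CPM in Ci. These were the pair with the lowest levels and the widest log2 changes, 4.82 ± 1.32 and 3.75 ± 1.11 (edgeR adjusted p = 0.0292 and 0.0395). All 4 calls of this paragraph were lost without Ci 2 (edgeR adjusted p from 0.102 to 0.176) or Ci 3 (0.0681 to 0.135), and those of GstD5 and GstD2 also without Chinmo 1 (0.0548 and 0.116) or Ci 1 (0.0815 and 0.0831). GST genes lie in clusters of similar sequence, and how reads shared between them were counted is not given in the sources used here.

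CG6084, now Akr1B and an aldose reductase, had 5158, 3156 and 5015 CPM in Chinmo and 2024, 777 and 1006 CPM in Ci (log2 change 1.81 ± 0.35, edgeR adjusted p = 0.00617, and 1.40 without Chinmo 3). With all libraries it alone passed of 12 tested markers of differentiating cyst cells, without Chinmo 3 it and the glutamine synthetase gene Gs2 did, and it was lost without Ci 2 (edgeR adjusted p = 0.0540). Idgf3, a secreted chitinase-like growth factor, had 2647, 1772 and 1235 CPM in Chinmo and 819.9, 365 and 736 CPM in Ci. All Chinmo libraries lay above all Ci libraries, with a log2 change of 1.56 ± 0.34 (edgeR adjusted p = 0.0111) and 1.45 without Chinmo 3. The related Idgf4 had 239, 171 and 1356 CPM in Chinmo and 77.9, 33.2 and 96.0 CPM in Ci (log2 change 3.09, edgeR adjusted p = 0.00857), but 1.23 without Chinmo 3 (adjusted p = 0.0938). Idgf3 and Idgf4 were the 2 members that passed of 5 Idgf genes tested, and both calls were lost without Ci 2 (edgeR adjusted p = 0.0853 and 0.0870). Of the 5, 3 had a positive log2 change and 2 a negative one. In those 2 every Chinmo library lay below every Ci library. The list median of 1.56 was the value of Idgf3 itself.

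Among 22 tetraspanins, membrane-spanning proteins that organise other proteins into microdomains, 3 were higher, all from the Tsp42E cluster, and 0 were lower; 2 passed without Chinmo 3 and 1 without Ci 2. Tsp42Ee had 1175, 1459 and 2493 CPM in Chinmo and 513, 191 and 308 CPM in Ci, and changed by 2.34 ± 0.38 (edgeR adjusted p = 0.00404), or 1.65 without Chinmo 3. It passed whichever library was left out. Tsp42Ed changed by 2.06 (edgeR adjusted p = 0.00894), and the call was lost without Ci 2 (0.0856). Tsp42Ef changed by 1.80 (edgeR adjusted p = 0.0311) and by 0.84 without Chinmo 3 (0.160), and its call was lost without Ci 1 (0.0638), Ci 2 (0.164) or Ci 3 (0.0865) too.

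Genes of translation and respiration were among the higher ones, and part of their count rested on Chinmo 3. Of 92 cytosolic ribosomal protein genes tested, 34 were higher and 1 lower, with a median log2 change of 1.03, and without Chinmo 3 the count was 15 higher and 1 lower with a median of 0.70. Without Ci 2 it was 1 higher and 0 lower. RpLP2, an acidic stalk protein, had 1279, 744 and 2155 CPM in Chinmo and 422, 235 and 257 CPM in Ci (log2 change 2.19 ± 0.38, edgeR adjusted p = 0.00455, and 1.40 without Chinmo 3), and passed whichever library was left out. The 1 lower gene, RpS5b, a paralogue of RpS5a with a germline bias, was named after its values were seen. It had 0.834, 3.95 and 0 CPM in Chinmo, against 9.35, 53.8 and 27.3 CPM in Ci (edgeR adjusted p = 0.0202), and did not pass without Ci 2. Its paralogue RpS5a ran the other way, at 764, 558 and 2730.2 CPM in Chinmo and 416, 198 and 249 CPM in Ci (log2 change 2.23, edgeR adjusted p = 0.00847), and was lost without Chinmo 3 (0.87, adjusted p = 0.0655), Ci 2 (0.0804) or, narrowly, Ci 3 (0.0517).

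Of 48 nuclear genes of oxidative phosphorylation, 14 were higher and 0 lower (median 0.86), and 5 were higher without Chinmo 3 (median 0.42) and 1 without Ci 2. Blw, the alpha subunit of ATP synthase, had 1822, 2306 and 6168 CPM in Chinmo and 1019, 438 and 616 CPM in Ci, and changed by 2.31 ± 0.41 (edgeR adjusted p = 0.00455), or 1.26 without Chinmo 3. It passed whichever library was left out. Cyt-c-p, the cytochrome c gene, had 1331, 1696 and 1276 CPM in Chinmo and 693, 232 and 402 CPM in Ci (log2 change 1.70, edgeR adjusted p = 0.0118, and 1.46 without Chinmo 3), and was lost without Ci 2 (0.0808) or Ci 3 (0.0670). COX4, of cytochrome oxidase, rested on Chinmo 3, with 324, 223 and 1773 CPM in Chinmo and 179, 82.8 and 88.7 CPM in Ci. Its log2 change was 2.72 with all libraries (edgeR adjusted p = 0.0104), 0.91 without Chinmo 3 (0.112), and it was also lost without Ci 2 (0.0917) or Ci 3 (0.0622).

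The mitochondrial genome gave 4 higher genes of 13 tested with all libraries and 1 without Chinmo 3. The gene that passed in both fits was mt:ATPase6, at 5075, 3328 and 3657 CPM in Chinmo and 1556, 1045 and 1574 CPM in Ci, a log2 change of 1.53 ± 0.29 (edgeR adjusted p = 0.00556) and 1.25 without Chinmo 3. It was lost without Ci 2 (edgeR adjusted p = 0.0605). Of 16 tested ribosomal RNA genes, 7 were higher and 3 lower, and without Chinmo 3 the count was 2 higher and 3 lower. The 3 lower loci, of 5.8S and precursor RNA, were scarce, at 283 CPM or less in each Ci and Chinmo library. The pseudogene-labelled 28S locus 28SrRNA-Psi:CR41609 had 42562, 28969.9 and 82870.1 CPM in Chinmo and 17565, 9092 and 16576 CPM in Ci (log2 change 1.84, edgeR adjusted p = 0.00455, and 0.97 without Chinmo 3). Its loci are near-identical copies, libraries were made from polyadenylated RNA, and the part of the ribosomal RNA share in these results was not tested beyond removing its genes, which left 492 higher and 304 lower.

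Heat shock genes gave 2 higher of 12 tested, Hsc70-3 and Hsp26, glycolysis 2 of 15, Eno and ImpL3 (now Ldh, lactate dehydrogenase), and the proteasome 4 of 46, Prosalpha7, Prosbeta3, Prosbeta5 and Rpt4. Over all genes tested 4.96% were higher. Without Chinmo 3 the counts were 0, 1 and 0, the 1 being Gapdh2, which did not pass with all libraries. ImpL3 had 253, 427 and 669.7 CPM in Chinmo and 147, 39.0 and 65.3 CPM in Ci (log2 change 2.42 ± 0.64, edgeR adjusted p = 0.0270). It no longer passed without Chinmo 3 (1.72, adjusted p = 0.0906), Ci 2 (0.146) or Ci 3 (0.116) in edgeR. Thor, the translation inhibitor 4E-BP, was steadier over the Chinmo libraries, with 428, 333 and 361 CPM in Chinmo and 188, 66.2 and 139.9 CPM in Ci. Its log2 change was 1.51 (edgeR adjusted p = 0.0250), and 1.22 without Chinmo 3 (0.0306), and it was lost without Ci 2 (0.138) or Ci 3 (0.0942).

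Single genes of sex determination, Wnt and EGFR signalling and adhesion, known from the niche and its stem cells, were lower in Chinmo than in Ci. Doublesex (dsx, 3R:7924323-7967408, minus strand), the transcription factor that sets male or female fate by its splice forms, had 27.5, 20.4 and 13.3 CPM in Chinmo, against 169, 119 and 61.9 CPM in Ci and 65.7, 35.8 and 37.0 CPM in WT. Every Chinmo library lay below every Ci and WT library, while Ci 3 lay just below the highest WT library. The log2 change over Ci was -2.49 ± 0.52 (edgeR adjusted p = 0.00847) and -2.62 without Chinmo 3, and it passed whichever library was left out. Set against WT, dsx changed by -1.15 in Chinmo and by 1.34 in Ci, and neither passed; both values share the WT libraries. Counts per gene do not tell the male and female forms apart. Of 13 tested sex determination genes dsx alone passed, and transformer (tra), the splicing factor upstream of it, had 1 count in Chinmo and 59 in Ci (edgeR adjusted p = 0.0558).

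The Wnt ligands Wnt6 and Wnt4 were lower in Chinmo, and Wnt6 was among the widest differences. Wnt6 (2L:7333714-7352542, plus strand) had no count in any Chinmo library, against 28.5, 40.9 and 9.81 CPM in Ci and 4.11, 5.57 and 6.17 CPM in WT. A limit of 3 counts over the Chinmo group is 0.904 CPM, and against the mean of the Ci libraries this makes Wnt6 at least 29.2-fold lower in Chinmo (edgeR adjusted p = 0.0104). Every fold given below as a limit is set against the Ci mean in the same way, and leaves out the spread between Ci libraries. Wnt4 (2L:7255419-7277171, minus strand) had 0, 12.5 and 0 CPM in Chinmo, 67.7, 37.4 and 40.5 CPM in Ci, and 10.8, 2.79 and 11.4 CPM in WT. Its log2 change was -3.31 ± 0.88 (edgeR adjusted p = 0.0270), and -3.20 without Chinmo 3, and every count of Wnt4 in Chinmo came from Chinmo 2. Notum, the secreted Wnt deacylase and a target of the pathway, had no count in Chinmo and 15.1, 13.6 and 6.83 CPM in Ci, at least 13.1-fold lower (edgeR adjusted p = 0.0197). In WT Notum had 3.08, 0 and 2.37 CPM, below every Ci library. Wnt4 was lost without Chinmo 1 (edgeR adjusted p = 0.0539), Ci 1 (0.0624), Ci 2 (0.0804) or Ci 3 (0.0666), and Wnt6 and Notum without Ci 2 (0.0658 and 0.0797). The Wnt list had 20 tested members with 3 lower, those named here, and 2 higher, arm and sgg, which did not pass without Chinmo 3. Its median log2 change was 0.02, with 10 members positive and 10 negative.

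CadN, the N-cadherin that links hub and stem cells, had 8.34, 7.24 and 1.66 CPM in Chinmo, against 43.2, 30.4 and 67.0 CPM in Ci (log2 change -2.92 ± 0.74, edgeR adjusted p = 0.0218, and -2.94 without Chinmo 3). In WT CadN had 22.1, 9.95 and 8.55 CPM, below every Ci library. Escargot (esg), a Snail-type factor needed in hub and cyst stem cells, had no count in Chinmo, 16.5, 14.96 and 16.6 CPM in Ci, and 10.3, 13.9 and 20.9 CPM in WT. It was at least 17.7-fold lower in Chinmo than in Ci (edgeR adjusted p = 0.0138), while Ci and WT libraries overlapped. Argos (aos), the secreted EGFR inhibitor, had no count in Chinmo and 21.4, 5.14 and 9.81 CPM in Ci, at least 13.4-fold lower (edgeR adjusted p = 0.0197). In WT aos had 1.03, 1.59 and 0 CPM, below every Ci library. Su(H), the DNA-binding factor of Notch signalling, had 1 count in Chinmo and 202 in Ci, so that the Chinmo level was 1.32% of that in Ci (95% exact binomial interval 0.0333% to 7.45%, counting error only; edgeR adjusted p = 0.0174). All 4 calls were lost without Ci 2 (edgeR adjusted p from 0.0646 to 0.0917), and those of CadN and aos also without Ci 3 (0.0925 and 0.0551). In bulk samples, fewer cells of a type and less RNA per cell cannot be told apart for any of these genes.

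Of 16 cyst stem cell factors 2 were lower, CadN and Wnt4, and 0 higher, with a median log2 change of -0.86 beside -0.39 over all genes tested. Without Chinmo 3 the count was 4 lower, with E(bx) and robo2 added, and without Ci 2 it was 0. Hub markers gave 2 lower, CadN and esg, and 1 higher of 10, with a median of -0.34. Without Chinmo 3 they gave 3 lower, with magu added, and 0 higher, and without Ci 2 none passed. The higher gene was dpp, the BMP ligand, with 263, 212 and 753 CPM in Chinmo, 152, 68.7 and 84.0 CPM in Ci, and 89.3, 58.5 and 109 CPM in WT. Its log2 change of 2.01 ± 0.59 (edgeR adjusted p = 0.0391) was 0.90 without Chinmo 3 (0.194), and the call was lost without Ci 2 (0.173) or Ci 3 (0.144) as well. Upd1, the hub ligand of JAK/STAT, had 0, 5.93 and 0 CPM in Chinmo and 8.02, 9.12 and 9.39 CPM in Ci, and did not pass (edgeR adjusted p = 0.209), though it did in DESeq2 (0.0450) and without Chinmo 2 (edgeR, 0.0216). Dopamine receptor Dop2R, outside these lists, had no count in Chinmo and 16.9, 13.1 and 28.2 CPM in Ci, at least 21.5-fold lower (edgeR adjusted p = 0.00730), and passed whichever library was left out.

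**Figure D4:**
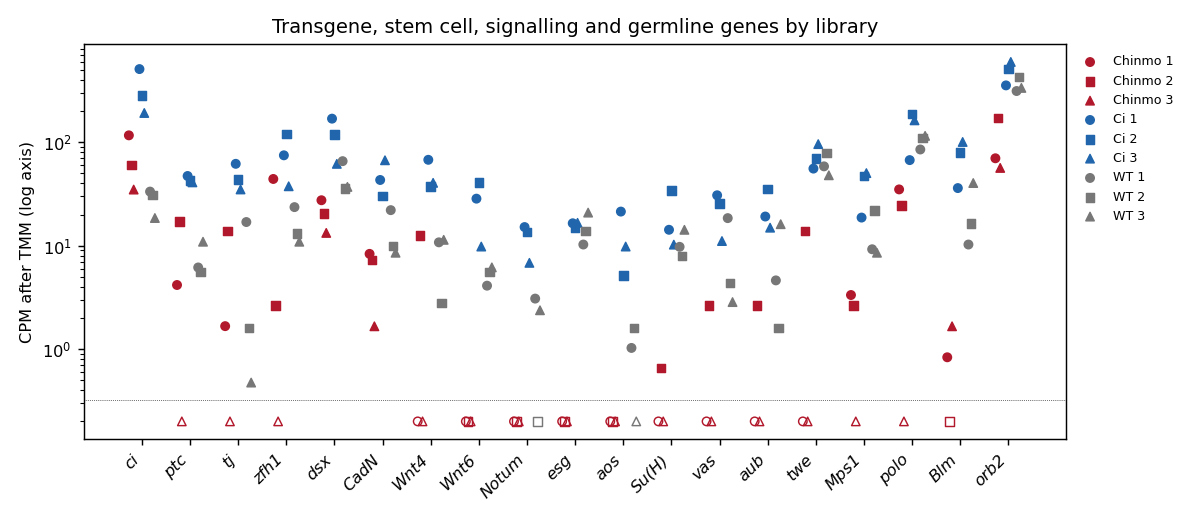
CPM after TMM scaling (log axis) of 19 transgene, stem cell, signalling, germline and cell division genes, 1 symbol per library, with Chinmo in red, Ci in blue and WT in grey; empty symbols under the dotted line are libraries with no count. Chinmo symbols lie below Ci symbols in every gene shown except zfh1, where Chinmo 1 lies inside the Ci range, and many Chinmo libraries had no count.

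Some germline genes were lower in Chinmo than in Ci. The sort is for somatic cells, yet germline transcripts were present in Ci and WT libraries. Vas and aub had means of 22.5 and 23.1 CPM in Ci, near the median of 23.1 CPM over all genes tested. In WT they had 8.57 and 7.45 CPM, beside a median of 23.3 CPM. The later germline gene bol had means of 768 CPM in Ci and 615 CPM in WT. Of 18 early germline genes tested, 6 were lower (AGO3, aub, bgcn, qin, tut and vas) and 1 higher (tud), with a median log2 change of -3.14, or -1.16 with genes lacking counts in Chinmo set to their limit. The count was 6 lower and 0 higher without Chinmo 3, and none passed without Ci 2. The summed level of the list ran the other way, at 1557, 1572 and 2697 CPM in Chinmo and 1317, 837 and 1121 CPM in Ci, with tud its most abundant member. Vas, the Vasa RNA helicase, had 0, 2.63 and 0 CPM in Chinmo, against 30.7, 25.7 and 11.1 CPM in Ci and 18.5, 4.38 and 2.85 CPM in WT (log2 change -4.26 ± 1.05, edgeR adjusted p = 0.0196, and the same without Chinmo 3). Aub, a Piwi-family protein, had 0, 2.63 and 0 CPM in Chinmo and 19.2, 35.3 and 14.9 CPM in Ci (log2 change -4.31, edgeR adjusted p = 0.0166). In both genes the groups did not overlap, and without Chinmo 2 no count was left in Chinmo. The calls of vas, aub, qin and AGO3 were lost without Ci 2 (edgeR adjusted p from 0.0763 to 0.0940), and that of AGO3 also without Chinmo 1 (0.0534) or Ci 3 (0.0605).

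Of 46 spermatocyte and spermatid genes, 4 were lower (bol, fzo, Tpl94D and twe) and 0 higher, with a median of -1.28, and in 22 every Chinmo library lay below every Ci library. Without Chinmo 3 the count was 7 lower, with S-Lap2, S-Lap3 and S-Lap8 added, and 1 higher, RacGAP84C, of 47. Over all genes tested, 2355 had this order (23.4%) and 873 the opposite one (8.68%). Bol, a translation factor of the meiotic entry, had 103, 258 and 6.65 CPM in Chinmo and 591, 824 and 889 CPM in Ci (log2 change -2.63 ± 0.72, edgeR adjusted p = 0.0313, and -2.46 without Chinmo 3). Twine (twe), the meiotic Cdc25 phosphatase, had 0, 13.8 and 0 CPM in Chinmo and 55.7, 69.7 and 96.0 CPM in Ci (log2 change -3.82, edgeR adjusted p = 0.0342), and its counts in Chinmo all came from Chinmo 2. Fzo, a mitofusin of spermatids, had 18.3, 9.22 and 0 CPM in Chinmo and 51.7, 138 and 79.4 CPM in Ci (log2 change -3.20, edgeR adjusted p = 0.0276). The summed level of the list was 7871, 8056 and 7851 CPM in Chinmo and 10096, 14269 and 18512 CPM in Ci. The 4 calls were lost without Ci 2 (edgeR adjusted p from 0.103 to 0.127) or Ci 3 (0.0823 to 0.152), those of bol, twe and Tpl94D without Chinmo 1 (0.0694 to 0.0762), and those of twe and Tpl94D without Ci 1 (0.0531 and 0.0555).

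Some genes of cell division and DNA repair were lower too. Of 46 tested cell cycle, replication and mitosis genes, 5 were lower (aurA, bora, Klp61F, Mps1 and polo) and 0 higher, with a median log2 change of -1.61, and 7 were lower without Chinmo 3 and 0 without Ci 2. Mps1, a spindle checkpoint kinase, had 3.34, 2.63 and 0 CPM in Chinmo and 18.7, 47.2 and 50.3 CPM in Ci (log2 change -4.09 ± 0.96, edgeR adjusted p = 0.0160). Polo, the Polo kinase, had 35.0, 24.4 and 0 CPM in Chinmo and 67.2, 189 and 163 CPM in Ci (log2 change -2.76, edgeR adjusted p = 0.0290, and -2.64 without Chinmo 3). Bora, a partner of Aurora A, had no count in Chinmo and 1.78, 31.6 and 11.5 CPM in Ci, at least 16.5-fold below the Ci mean (edgeR adjusted p = 0.0240). Ci 1 alone lay far nearer the limit. All 3 were lost without Ci 2 (edgeR adjusted p from 0.0755 to 0.118) or Ci 3 (0.0597 to 0.0979). Germline genes were lower in the same libraries, and which cells these transcripts came from was not tested.

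Lower genes that passed whichever library was left out included several of these kinds. Blm (3R:11736810-11741783, minus strand), the Bloom helicase of DNA repair, had 2 counts in Chinmo and 656 in Ci, or 0.834, 0 and 1.66 CPM in Chinmo and 36.1, 79.3 and 100.7 CPM in Ci. The Chinmo level was 0.814% of that in Ci (95% exact binomial interval 0.0984% to 2.95%, counting error only; edgeR adjusted p = 0.00501). Orb2, an RNA-binding translation regulator needed in spermatogenesis, had 70.0, 171 and 56.5 CPM in Chinmo and 355, 511 and 598 CPM in Ci (log2 change -2.29 ± 0.45, edgeR adjusted p = 0.00730, and -2.39 without Chinmo 3). The gene dikar had 99.2, 94.2 and 18.3 CPM in Chinmo and 331, 396 and 349 CPM in Ci (log2 change -2.32 ± 0.47, edgeR adjusted p = 0.00755). Among genes picked after their values were seen, Tet, of the enzyme family that oxidises methylated bases, had 1.67, 4.61 and 0 CPM in Chinmo, against 60.6, 61.7 and 60.2 CPM in Ci and 18.5, 20.3 and 22.8 CPM in WT (log2 change -4.59 ± 0.70, edgeR adjusted p = 0.00273, and -4.57 without Chinmo 3). The Ci libraries of Tet were nearly level, and WT lay between the groups. Sti, the citron kinase of cytokinesis, with 1 count in Chinmo and 280 in Ci, and ord, a meiotic cohesion gene, with 4 and 349 counts, were picked in the same way and also passed in all 6 of those fits.

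Of the marker lists of other cell types, contractile muscle genes gave 0 calls of 12 tested, fat body genes 0 of 4, neuron genes 0 of 7, accessory gland genes 0 of 2 and follicle cell genes 0 of 6. Without Chinmo 3 the muscle gene TpnC73F was higher (1 of 13, edgeR adjusted p = 0.0443), and the other 4 lists still gave 0. In those 5 lists the summed levels of Chinmo and Ci overlapped, and in muscle they were 789, 819 and 703 CPM in Chinmo and 822, 592 and 663 CPM in Ci. Summed hemocyte markers did not overlap, at 559, 782 and 950.5 CPM in Chinmo and 408, 162 and 387 CPM in Ci. They gave 1 call of 4, the scavenger receptor crq, at 498, 581 and 941 CPM in Chinmo and 245, 95.6 and 277 CPM in Ci (log2 change 1.71, edgeR adjusted p = 0.0168, and 1.06 without Chinmo 3, 0.0622). It was lost without Ci 2 too (edgeR adjusted p = 0.110). Crq alone made up most of the summed hemocyte level in each of these libraries. The median log2 change of the list was -0.25, with 2 members positive and 2 negative. Hml, a defining hemocyte marker, was at 1.67, 1.32 and 1.66 CPM in Chinmo and 0.891, 4.44 and 3.41 CPM in Ci, so that no library held more than a trace. The part of other cell types in these results was not tested further.

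Some calls belonged to Chinmo 3 alone. Pi3K92E, the catalytic subunit of PI3 kinase, had 55.9, 176 and 3606 CPM in Chinmo and 63.2, 74.6 and 62.3 CPM in Ci. Chinmo 1 lay below all Ci libraries and Chinmo 2 and 3 above them, so the groups overlapped, and the log2 change of 4.26 ± 0.97 (edgeR adjusted p = 0.0166) dropped to 0.43 without Chinmo 3 (0.519). The mitochondrial ribosomal protein gene mRpL46 had 5.84, 13.8 and 475 CPM in Chinmo and 4.90, 9.59 and 1.71 CPM in Ci, with log2 changes of 4.88 (edgeR adjusted p = 0.0270) and 0.45 (0.805). Phl, the Raf kinase of the EGFR pathway, had 29.2, 50.1 and 515 CPM in Chinmo and 29.8, 16.8 and 27.7 CPM in Ci, with 2.99 (edgeR adjusted p = 0.0320) and 0.34 (0.724). Prosalpha7, a proteasome subunit, changed by 2.08 with Chinmo 3 and by 0.03 without it (edgeR adjusted p = 0.0389 and 0.973). These 4 calls were also lost without Ci 1 (edgeR adjusted p from 0.0603 to 0.0847), Ci 2 (0.101 to 0.154) or Ci 3 (0.103 to 0.130).

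Other genes passed in edgeR without Chinmo 3 and not with all libraries. The first 4 named here had the smallest adjusted p among them, so their pattern follows from that choice. Whether Chinmo 3 or the other Chinmo libraries gave the truer level was not tested. Syp, an RNA-binding protein of temporal identity in neural stem cells, had 333, 468 and 902 CPM in Chinmo and 934, 842 and 1042 CPM in Ci. Chinmo 1 and 2 lay below all Ci libraries and Chinmo 3 lay among them, and the log2 change was -0.73 with all libraries (edgeR adjusted p = 0.170) and -1.59 without Chinmo 3 (0.00715). Mud, a spindle orientation protein, had 25.8, 53.3 and 317 CPM in Chinmo and 111, 278 and 272 CPM in Ci, with log2 changes of -0.75 (edgeR adjusted p = 0.458) and -2.87 without Chinmo 3 (0.00715). Hrb98DE, an hnRNP gene, had 188, 139 and 410.4 CPM in Chinmo and 403, 519.5 and 462 CPM in Ci, with -0.92 (edgeR adjusted p = 0.143) and -1.88 (0.00906). CG2310 ran the other way, with 108, 67.8 and 0 CPM in Chinmo and 7.13, 7.95 and 2.56 CPM in Ci, a log2 change of 3.31 (edgeR adjusted p = 0.0503) and 3.50 without Chinmo 3 (0.00867). With all libraries, limma-voom called Syp, mud and Hrb98DE (adjusted p = 0.0280, 0.0435 and 0.0298), and CG2310 passed under upper quartile scaling (0.0336), without a filter (0.0166) and in DESeq2 (0.00786). Imp, the partner of Syp in temporal identity, had 133, 103 and 111 CPM in Chinmo and 149, 171 and 208 CPM in Ci, and passed in neither fit (edgeR adjusted p = 0.312 and 0.101).

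**Figure D5:**
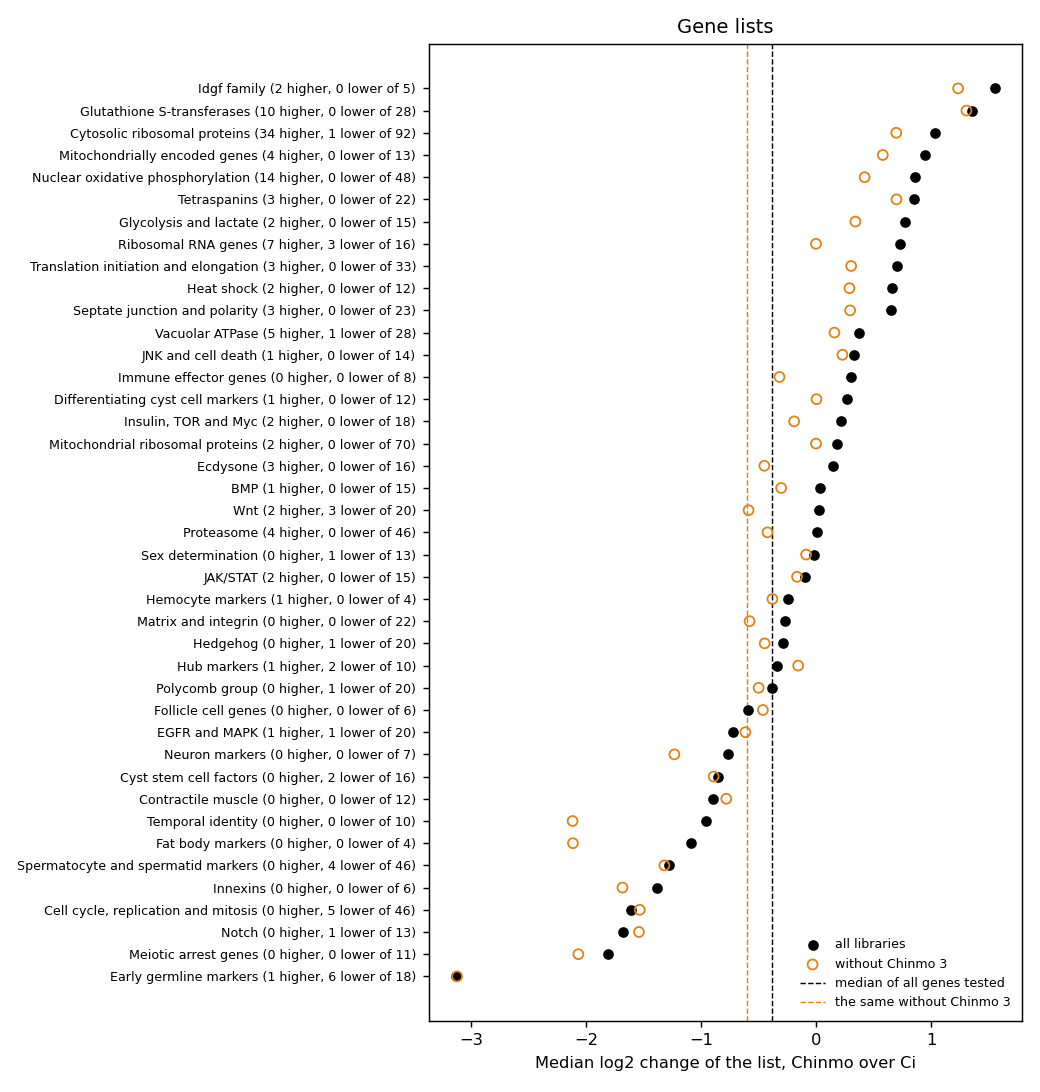
Median log2 change of Chinmo over Ci for each gene list with at least 3 tested members, with all libraries (filled) and without Chinmo 3 (open), and the median of all genes tested as dashed lines; the labels give members higher and lower of those tested. Idgf genes, glutathione S-transferases and ribosomal proteins had medians of 1.56, 1.35 and 1.03, though 2 of 5 Idgf genes were negative. Early germline genes had -3.14, or -1.16 with genes lacking counts set to their limit.

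Set beside the controls, Chinmo differed from WT in 176 genes that were higher (1.75%) and 106 that were lower (1.05%). Ci differed from WT in 1 gene, ci itself (0.00994%), and in 0 lower genes by the same edgeR test. All values against WT share the WT libraries, so they are given side by side only. Those of Chinmo over WT include Chinmo 3, and they are not given without it. SP1029 changed by 3.64 in Chinmo over WT and by -1.37 in Ci over WT, CG3397 by 6.38 and 0.70, and GstD1 by 1.18 and -0.63. Esg changed from WT by 0.09 in Ci, vas by -2.86 in Chinmo and 1.40 in Ci, and tj by -0.11 in Chinmo and 2.90 in Ci. Of these genes, SP1029, CG3397 and esg passed in Chinmo over WT (edgeR adjusted p = 0.0217, 0.00317 and 0.0365), and none passed in Ci over WT.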

How the data were processed

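Polyadenylated RNA of sorted testis cells was sequenced paired-end with 50 cycles, per the labels' protocols. The submitters' processing notes name STAR, HTSeq, DESeq2, Picard and bcl2fastq, with builds dm6 and BDGP6; for versions, the strand setting and shared reads nothing is given in the sources used here. The authors deposited whole-number counts per gene, from which summary lines of reads without a gene were dropped. They also deposited a signal table, which is those counts divided by 1 size factor per library, and it was not used in the tests. Genes were kept by filterByExpr (10056 of 17408, and 10628 without Chinmo 3), scaled by TMM, and fitted with 1 mean per group over all 15 libraries by the quasi-likelihood F test of edgeR 4.0.16 (R 4.3.3), with Benjamini-Hochberg adjustment across every gene in the fit. The common biological coefficient of variation was 65.3%, so missing the threshold does not show equal levels. Counts per library ran from 1143049 to 2943120, and limits from 3 counts and binomial intervals cover counting error only. Coordinates are from the BDGP6.54 annotation, where 8227 genes tested matched by symbol, 1752 by synonym and 77 not at all. Members, lists and the naming rule were chosen with earlier results of these data known. The rule took the transgenes and their readouts, the 12 widest named changes in each direction that passed with and without Chinmo 3 at 10 CPM or more without overlap, up to 4 members of each list by adjusted p, the 5 abundant genes (200 CPM or more) with the smallest adjusted p in each direction, and 4 genes each that passed only with or only without Chinmo 3; exceptions are named as such. Alternatives were RLE and upper quartile scaling, DESeq2 1.42.0, limma-voom 3.58.1, no filter and a filter of 5 CPM in 3 libraries, the 6 libraries alone, a replicate block, ribosomal RNA genes removed, and each library left out. The pipeline was tested on simulated data.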

Additional observations from a re-analysis of the deposited data

How the results depend on the processing

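The numbers of genes past the threshold depended on the libraries, the scaling and the test. Against 499 higher and 313 lower genes, upper quartile scaling gave 808 higher, RLE 693 lower, no filter 575 lower, DESeq2 1761 lower and limma-voom 1331 lower. The 6 libraries alone gave 3 higher and 0 lower by edgeR, where 760 and 714 had an unadjusted p under 0.05. Leaving out each library in turn gave 26 to 712 higher and 15 to 657 lower genes, with the fewest without Ci 2 (26 and 15) and the most without Chinmo 2 (712 and 657). In the fit without Chinmo 3, with 234 higher and 480 lower genes, leaving out 1 more library gave 29 to 645 higher and 20 to 365 lower genes, fewest without Chinmo 1 and most without Ci 1; this alternative was chosen after seeing the data, and the lone libraries left are assumed to vary like the other groups. Of 106 named genes past the threshold, 16 passed whichever library was left out, 89 were lost without Ci 2, 65 without Ci 3, 41 without Chinmo 3, 18 without Ci 1, 17 without Chinmo 1 and 2 without Chinmo 2. The cause of these losses was not tested. Replicate numbers did not pair the libraries: correlations of same-numbered deviations were -0.035, 0.050 and -0.035, and the fit with the replicate number as a block called 274 higher and 126 lower genes. Of the named genes, eya changed sign with upper quartile scaling (0.18), limma-voom (0.27), the 6 libraries alone (0.036), the block (0.15), ribosomal RNA genes removed (0.00051), without Chinmo 1 (0.064) and without Ci 1 (0.68), and hh without Ci 1 (0.21); with 1 library left out eya ranged from -0.35 to 0.68 and hh from -0.78 to 0.21, and neither passed. The stricter filter (500 and 314) and the removal of ribosomal RNA genes (492 and 304) stayed close to the counts reported. Depth limits the lower genes most: 86 of the 313 had no count in any Chinmo library, where a level below 0.904 CPM over the group could go unseen.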

Other observations

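Vacuolar ATPase genes, which acidify organelles, gave 5 higher and 1 lower of 28 tested with all libraries, and 0 higher and 1 lower of 30 without Chinmo 3. The lower member, Vha16-3, had no count in Chinmo and 7.57, 42.3 and 7.68 CPM in Ci, at least 21.2-fold below the Ci mean (edgeR adjusted p = 0.0218), and was lost without Ci 2 (0.118). That mean rested largely on Ci 2. Septate junction and polarity genes gave 3 higher of 23 (Cont, kune and nrv2) and ecdysone genes 3 of 16 (Eip71CD, ImpL3 and usp), and 0 of each list passed without Chinmo 3. Among 20 Polycomb group genes Pcl alone passed, at 14.2, 22.4 and 1.66 CPM in Chinmo and 42.8, 91.7 and 57.2 CPM in Ci (log2 change -2.25, edgeR adjusted p = 0.0396), and it was lost without Chinmo 1 (0.0689), Ci 2 (0.142) or Ci 3 (0.104). Over all genes tested, 4.96% were higher and 3.11% lower, and without Chinmo 3 the shares were 2.2% and 4.52%. Single lower calls in lists of 28 and 20 genes lie near these shares.

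Genes higher in Chinmo had a median exon length of 1709.5 bases and genes lower in Chinmo a median of 2563 bases, beside 1903 bases over all genes tested. For the genes that passed with and without Chinmo 3 the medians were 1576 and 2855 bases.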
